A study of Mus musculus with 7 samples.

Results

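This report describes 210 isolated sites listed for RelA (p65) in mouse regulatory T (Treg) cells, at which no IRF4 binding was listed. They were found by chromatin immunoprecipitation sequencing (ChIP-seq), and each is the summit of a peak, a single base pair. The 210 were chosen by 2 measured properties of the deposited lists. A p65 summit had to have no IRF4 summit of either genotype within 200 bp, and it could not belong to a run of 3 or more p65 summits each at most 50 kb from the next. Summits on chromosomes 1 to 19 and X were eligible. The members are 210 of the 797 summits of the p65 list. Of the other p65 summits, 97 were equally isolated and had IRF4 within 200 bp, and 321 lacked IRF4 but were crowded into runs or lay outside these chromosomes.

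All cells were splenic Treg cells on a C57BL/6 background. Antibody to p65 was used on WT cells (2 samples) after PMA plus ionomycin for 30 min. Antibody to IRF4 was used on WT cells (3 samples) and on p65KO cells, which lack RelA (2 samples), after anti-CD3 plus anti-CD28 for 48 h. The labels used here do not say how RelA was deleted, or in which cells. Each group was deposited as 1 list that pools its samples, and the IRF4 lists held 5630 summits (WT) and 4312 (p65KO). No value below therefore has a replicate error, and the read depth is unknown. Intervals on shares are 95% Wilson intervals, and they cover counting error over summits only.

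RelA is the activating subunit of the most common NF-κB dimer. At rest it is held in the cytoplasm by inhibitor proteins of the IκB family, and PMA, which activates protein kinase C, together with the calcium ionophore ionomycin releases it to the nucleus within minutes. There it binds κB motifs and drives, among others, the genes of its own subunits and inhibitors. IRF4 is induced more slowly by antigen receptor signals, binds largely together with AP-1 proteins such as BATF, and is needed by effector Treg cells. The absence of IRF4 at a member means only that no summit passed the cut-off after the later, different stimulation. Per the names of the peaks, no input library entered the calling, and p65 binding in p65KO cells was not analysed here. No summit was left out here for lying in repeated sequence. Whether each member is a site of RelA binding was therefore not tested.

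The members had low p65 scores beside isolated summits with IRF4, and a smaller share of high scores than the p65 list as a whole. The authors' peak score, a significance value on a −log10 scale, ran from 1.92 to 40.8 in the members, with a median of 8.11 (95% interval of the median 7.20 to 9.35) and quartiles of 5.34 and 11.99. The whole p65 list, which includes the members, had a median of 9.61 (8.92 to 10.6) and an upper quartile of 17.7. The intervals of these 2 medians overlap. The 97 isolated summits with IRF4 had a median of 30.8 (24.0 to 41.7) and reached 329. The 321 crowded or unplaced summits without IRF4 had a median of 7.18 (6.72 to 7.79) and reached 35.4. The members and the other p65 summits without IRF4 thus had medians with overlapping intervals, both below the interval of the summits with IRF4. A score above 20 was held by 15 members (7.14%), by 173 summits of the whole list (21.7%), by 64 of the isolated summits with IRF4 (66.0%) and by 8 of the crowded or unplaced ones (2.49%).

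The share of isolated p65 summits without IRF4 was lower at high p65 scores. Over all scores it was 68.4% of 307 summits, and in the whole p65 list it was 66.6%. Both shares follow from the rule. Up to a score of 5, 39 of 45 isolated summits had no IRF4 (86.7%, 73.8 to 93.7), and from 5 to 10 it was 101 of 113 (89.4%, 82.4 to 93.8). Between 10 and 20 the share was 78.6% (67.6 to 86.6) of 70. It was 34.2% (21.2 to 50.1) of 38 summits between 20 and 40. Above 40 only 2 of 41 were members (4.88%, 1.35 to 16.1). None of the 50 highest p65 summits was a member. There were 3 among the highest 100 and 19 among the highest 200.

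**Figure D1:**
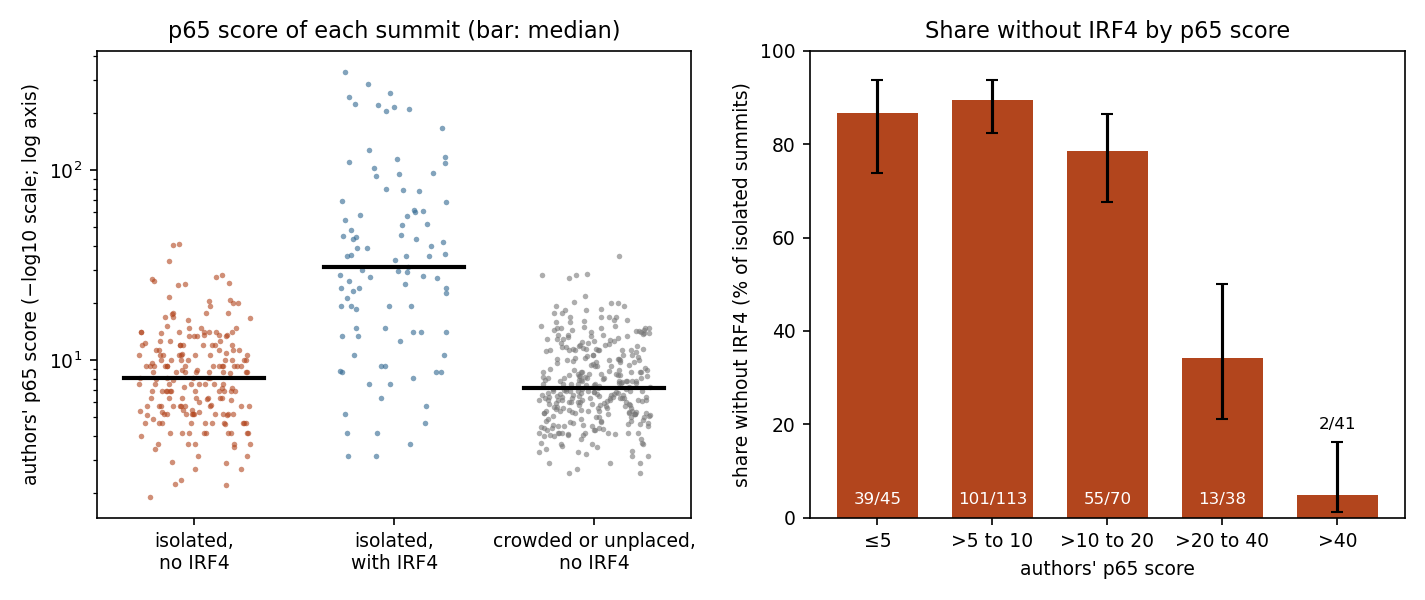
Left, authors' p65 score of each summit (log axis) in the 210 isolated summits without IRF4, the 97 isolated summits with IRF4 and the 321 crowded or unplaced summits without IRF4, with a bar at each median. Right, share of isolated summits without IRF4 in 5 bands of p65 score, with 95% Wilson intervals and counts; the share is 86.7% in the lowest band and 4.88% in the highest.

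The 25 highest members, with scores from 15.2 to 40.8, lay on 19 chromosomes. Positions are given as chromosome and coordinate of the mm9 build, counted from 1. Genes and sequence at these positions were not assigned, since no genome or annotation of that build was used here. The 25 split by how near the closest IRF4 summit lay, and 5 of them had one within 1 kb. The strongest of these was chr6:133962330, which came after the highest member with a p65 score of 40.6 and rank 71, with IRF4 at 306 bp in WT (score 24.2) and at 312 bp in p65KO cells (21.1). chr2:122507896 scored 26.9 and had IRF4 at 590 bp in WT and at 228 bp in p65KO cells. chr17:39981911 scored 25.2, with IRF4 at 535 bp and 698 bp. These 3 summits are separate from IRF4 by the 200 bp rule but are close to listed IRF4 summits in both genotypes. Without an input library, whether reads pile up at these places regardless of the antibody was not tested. chr16:14337438 (20.8) had IRF4 at 291 bp in p65KO cells, but in WT at 13604 bp. chr9:56108390 (16.2) had it at 430 bp in WT and at 13233 bp in p65KO cells.

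A further 4 of the 25 had their nearest IRF4 summit between 1 and 10 kb away. The highest member of all, chr3:135354535, scored 40.8 and ranked 70 in the p65 list. Its nearest IRF4 summit was 2228 bp away in WT (score 22.2) and 9097 bp away, on the other side, in p65KO cells (31.5). This was a lone p65 site, with no other p65 summit within 13421036 bp. chr10:18735268 scored 33.4 and ranked 97, with WT IRF4 at 3454 bp (13.8) and p65KO IRF4 at 27544 bp (18.6). It was 46825 bp from another p65 summit, which scored 5.21. chr18:33356479 (20.6) had IRF4 at 3620 bp in WT (65.6) and 3571 bp in p65KO cells (69.0). chr10:80402699 (21.6) had IRF4 at 9257 bp in WT (11.7) and 9343 bp in p65KO cells (12.8).

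Between 10 and 100 kb from IRF4 were 9 of the 25. chr12:56592964 led them with a p65 score of 26.2 and had a second member, scoring 8.62, only 796 bp away. chr18:68940717 followed with 25.7. The others were chr14:56418264 (20.01), chr5:123440680 (20.01), chr13:3408130 (17.7), chr4:40553939 (17.7), chr1:52557364 (17.0), chr15:101084550 (17.0) and chr10:7095160 (15.2).

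The last 7 of the 25 had no IRF4 summit within 100 kb. chr12:45817307 scored 28.2 and ranked 113 in the p65 list. It was remote from both factors, with IRF4 at 2766388 bp in WT and 2766386 bp in p65KO cells, and another p65 summit no nearer than 2847964 bp. chr19:46379196 scored 27.3, ranked 120, and had IRF4 at 302188 bp in WT cells. chr7:31207302 (24.8) had it at 172057 bp. The remaining 4 were chr14:4650465 (19.2), chrX:30710563 (17.7) and a pair on chr8:71945718 (17.6) and 71996622 (16.6). That pair lay 50904 bp apart, just over the 50 kb that joins summits into a run. So the strongest members included sites beside IRF4 and sites far from any.

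At the 200 bp edge of the rule, few summits lay close to the limit. The member nearest to IRF4 was chr5:22892770 (p65 score 7.50), with WT IRF4 at 201 bp and p65KO IRF4 at 262 bp. The next were the summits of chromosomes 2, 16 and 6 given above, at 228, 291 and 306 bp, and chr11:88831841 (13.5) at 378 bp. On the other side of the limit lay chr6:30754730 (19.2) at 197 bp, chr12:80747775 (7.50) at 193 bp and chr12:75905393 (10.6) at 149 bp. Next were chr13:93881727 (52.1) at 140 bp and chr7:66833066 (8.73) at 137 bp. On both sides of the limit the p65 scores ranged widely, from 7.50 to 40.6 in these 5 members and from 7.50 to 52.1 in the 5 summits with IRF4.

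Beyond 200 bp, which the rule did not use, IRF4 summits were counted around the members and around the isolated p65 summits with IRF4. Within 1 kb it was 12 of 210 members (5.71%, 3.30 to 9.72), and within 10 kb 41 (19.5%, 14.7 to 25.4). Within 100 kb it was 100 members (47.6%, 40.97 to 54.4). The 41 include the 7 members, described below, that had an isolated p65 summit with IRF4 within 10 kb. For these 7, IRF4 at the neighbouring p65 site was counted. For the 97 summits with IRF4, counting only further IRF4 summits beyond 200 bp, the shares were 10.3% (5.70 to 17.9), 18.6% (12.1 to 27.4) and 46.4% (36.8 to 56.3). A summit of the other genotype beyond 200 bp counted as further, even where both lists may mark the same IRF4 site. At chr11:88830331, for example, WT IRF4 lay at 91 bp and p65KO IRF4 at 423 bp. This applies also to the WT IRF4 summits below. The difference at 1 kb, members minus summits with IRF4, was -4.59 percentage points with a 95% Newcombe interval from -12.6 to 1.51. At 10 kb it was 0.97 points (-9.12 to 9.73), and both intervals hold differences in either direction. Of the 5533 WT IRF4 summits on the same chromosomes, 4.88% (4.34 to 5.48) had another IRF4 summit beyond 200 bp within 1 kb, close to the members' share. Within 10 kb it was 27.1% (26.0 to 28.3) and within 100 kb 73.3% (72.1 to 74.4), both above the intervals of the members. The median distance from a member to IRF4 was 119 kb (quartiles 18.5 and 464 kb), and 26 members had none within 1 Mb. Beyond 200 bp, the median was 130 kb for the isolated p65 summits with IRF4 and 30.9 kb for the WT IRF4 summits. Within 1 Mb, 87.6% of the members and 87.6% of the isolated summits with IRF4 had such an IRF4 summit.

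**Figure D2:**
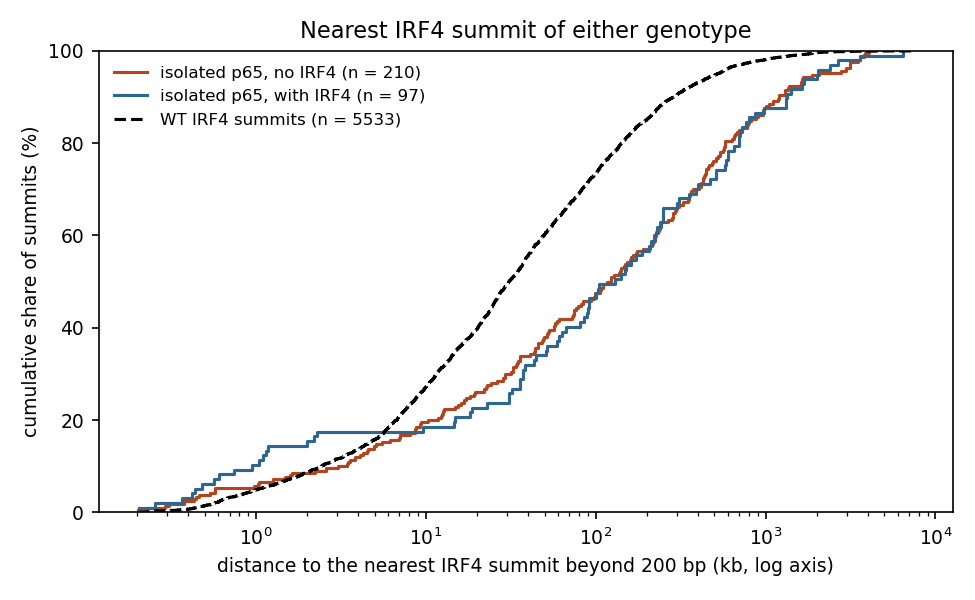
Cumulative share of summits by distance to the nearest IRF4 summit of either genotype beyond 200 bp (log axis, kb), for the 210 members, the 97 isolated p65 summits with IRF4 and 5533 WT IRF4 summits. The 2 p65 curves run close together from about 10 kb on, with 47.6% and 46.4% reached at 100 kb, and both lie below the IRF4 curve there (73.3%).

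The median p65 score was highest in the members nearest to IRF4, within overlapping intervals. The median was 9.995 (7.50 to 13.5) in the 41 with IRF4 between 200 bp and 10 kb and 8.73 (7.50 to 9.995) in the 59 between 10 and 100 kb. It was 6.91 (5.81 to 8.73) in the 84 between 100 kb and 1 Mb and 7.03 (5.76 to 11.99) in the 26 farther away. The intervals of these medians overlapped between neighbouring classes. The highest score in the 4 classes was 40.8, 26.2, 27.3 and 28.2, so that a member without IRF4 in its neighbourhood could still rank among the strongest.

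The IRF4 summits around the members were compared between genotypes. Of the 41 members with IRF4 within 10 kb, 29 had it in both lists, 10 in the WT list alone (24.4%, 13.8 to 39.3) and 2 in the p65KO list alone. The same share was 24.4% (22.3 to 26.6) among the 1501 WT IRF4 summits with another IRF4 summit within 10 kb. Of the 18 isolated p65 summits with further IRF4 there, 2 had it in the WT list alone and 4 in the p65KO list alone. The WT list is the longer. Around all members lay 44 WT IRF4 summits between 200 bp and 10 kb, with a median IRF4 score of 23.2, and 24 of them (54.5%, 40.1 to 68.3) were matched by a p65KO summit at most 200 bp away. The share was 64.96% (63.7 to 66.2) of the 5533 WT IRF4 summits on these chromosomes, which had a median IRF4 score of 26.5, and 64.4% in the whole WT list. Around the isolated p65 summits with IRF4 it was 11 of 16 (68.75%, 44.4 to 85.8). The share around the members differed from that of the 5533 by -10.4 percentage points (-24.9 to 3.40), an interval that includes 0. With partners sought within 1 kb, the shares were 65.9% around the members and 66.7% of the 5533. The member chr11:61460804 lay 2579 bp from the highest-scoring of the 44 WT IRF4 summits.

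Close pairs of p65 summits were of 2 kinds. Another p65 summit lay within 50 kb of 53 members (25.2%, 19.8 to 31.5), and since runs of 3 or more were left out by the rule, each was one of a pair. For 40 the neighbour was another member, and for 13 an isolated summit with IRF4. Of the 97 isolated summits with IRF4, 27 had another p65 summit within 50 kb (27.8%, 19.9 to 37.5). At 10 kb the shares were 15.7% (11.4 to 21.2) of the members and 19.6% (12.9 to 28.6) of the summits with IRF4. Pairing was thus not particular to the members. Within 10 kb there were 13 pairs of 2 members, 654 to 6732 bp apart. They were mostly weak, with a median score of 6.62 over both summits. The pair of chr12:56592964 and 56593760 was the strongest (26.2 and 8.62). It was followed by chr10:7095160 and 7098565 (15.2 and 7.12), chr3:114175459 and 114180422 (7.15 and 13.6) and chr5:123993861 and 123994931 (9.69 and 12.7). The closest pair, chr1:90206125 and 90206779, scored 2.89 and 2.92. On chromosome 4, the summits at 145357843 and 145364575 had the same score of 5.21.

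Another 7 members had an isolated p65 summit with IRF4 within 10 kb, and each scored lower than that neighbour. In 6 of these pairs the distance was 1008 to 1510 bp. The members of the 7 pairs had a median score of 13.5 and the neighbours 27.8. Over all isolated summits the medians also differed, with 8.11 in the members and 30.8 in those with IRF4. On chromosome 16 the member at 3351533 scored 12.4, and the p65 summit with IRF4 1430 bp away scored 38.9. On chromosome 14 the member at 112769280 scored 14.1 and its neighbour, 1023 bp away, 35.9. Of the 7 neighbours, only this one had its IRF4 summit within 200 bp in the p65KO list alone. The others had it in the WT list alone or in both lists. The lowest member of all, chr4:3018099 (1.92), lay 1161 bp from a summit that scored 8.82. Whether such a member is a site of its own or the flank of its neighbour was not tested.

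**Figure D3:**
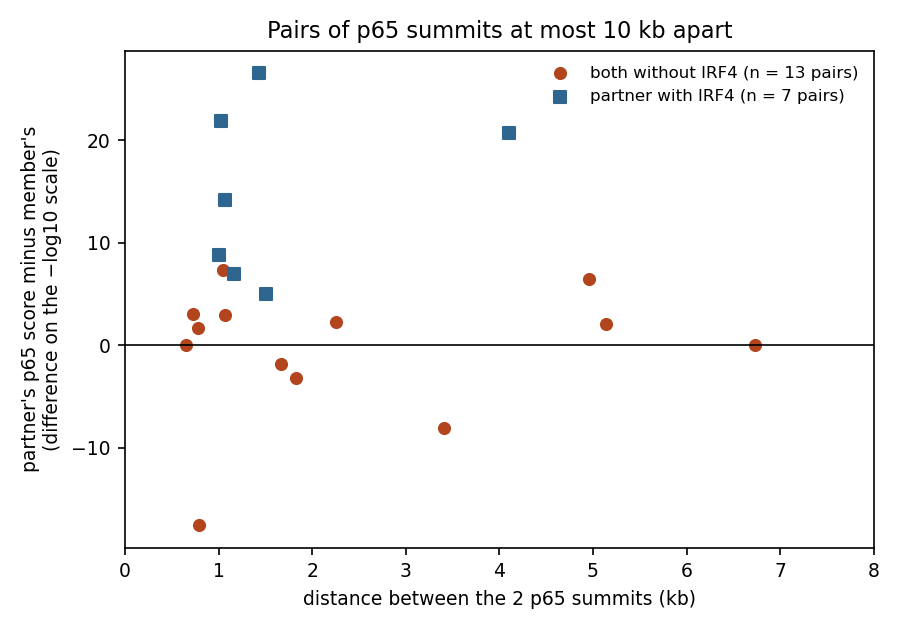
Pairs of p65 summits at most 10 kb apart: distance between them (kb) against the partner's p65 score minus the member's (a difference on the −log10 scale), for 13 pairs of members (the partner is the summit at the higher coordinate) and 7 pairs of a member and an isolated summit with IRF4. All 7 pairs with IRF4 lie above the line at 0, while the pairs of members lie on both sides of it.

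A minority of members lay in the neighbourhood of crowded p65 summits. Within 1 Mb of a summit that belongs to a run there were 30 members (14.3%, 10.2 to 19.7) and 5 of the 97 isolated summits with IRF4 (5.15%, 2.22 to 11.5). The difference was 9.13 percentage points (1.58 to 15.3). This interval treats summits as independent, although many of the 30 lay together in the same stretches, as given below. The share of members was 8.76% when runs were joined over gaps of up to 100 kb. That setting itself takes the 13 members within 100 kb of a run out of the members. The share was 5.06% among the members above the median score of the p65 list. These 30 members had a median p65 score of 5.33 (5.18 to 6.17), against 8.82 (7.96 to 9.35) in the 180 others, and all 15 members above a score of 20 were among the 180. IRF4 within 10 kb was found at 1 of the 30 and at 40 of the 180 (22.2%, 16.8 to 28.8). The largest group was on chromosome 4, where 9 members between 145029922 and 147169484 scored 3.63 to 10.9. The same stretch held 37 p65 summits in runs, 5 WT IRF4 summits and no isolated p65 summit with IRF4. On chromosome 14, 4 members between 43640642 and 44018152 scored 3.42 to 5.47, with no WT IRF4 summit between them.

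Members were found on each of the 20 chromosomes considered. Chromosome 4 had most, with 20 (9.52%, 6.25 to 14.3), followed by chromosome 1 with 19 (9.05%, 5.87 to 13.7). Chromosome 2 had the fewest, 4 members (1.90%, 0.743 to 4.79), although it held 7.81% of the WT IRF4 summits. The difference there was -5.90 percentage points (-7.28 to -2.93). The X chromosome had 10 members (4.76%, 2.61 to 8.54), against 1.16% (0.907 to 1.47) of the WT IRF4 summits, a difference of 3.61 points (1.43 to 7.39). Of these 10 members 5 lay within 1 Mb of a p65 run, as did 9 of the 20 on chromosome 4, and without all such members the share on X was 2.78% (1.19 to 6.34). Of the 97 isolated p65 summits with IRF4, 6 lay on X (6.19%, 2.86 to 12.8) and 2 on chromosome 2 (2.06%, 0.567 to 7.21). On both chromosomes the shares of the 2 kinds of isolated p65 summit had overlapping intervals. For chromosomes 4 and 14 the difference from IRF4 was 4.07 (0.73 to 8.83) and 2.94 (0.24 to 7.18) points, and for the other 16 chromosomes the interval included 0. Isolated p65 summits with IRF4 had shares of 6.19% (2.86 to 12.8) on chromosome 4 and 5.15% (2.22 to 11.5) on chromosome 14. The members' shares, 9.52% and 6.67% (4.01 to 10.9), had intervals overlapping these. Of the 14 members on chromosome 14, 4 lay within 1 Mb of a p65 run. The 20 intervals of the difference from WT IRF4 were not adjusted for their number or for the clustering of summits.

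**Figure D4:**
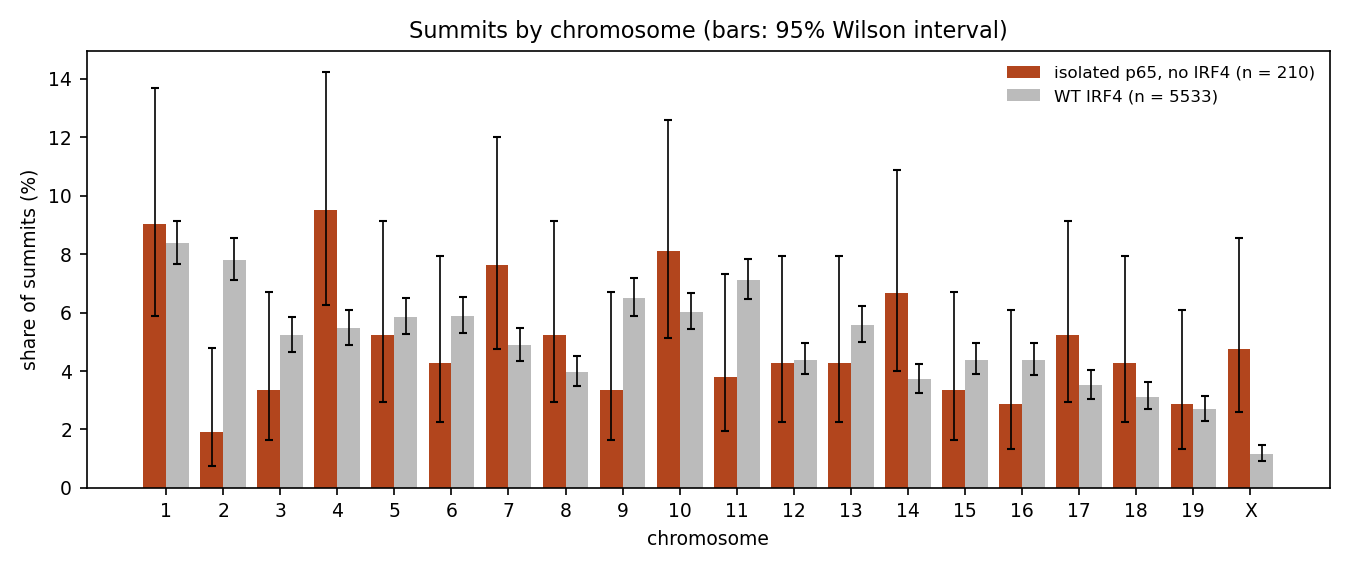
Share of the 210 members and of 5533 WT IRF4 summits on each chromosome (%), with 95% Wilson intervals. Chromosome 2 holds 1.90% of the members and 7.81% of the IRF4 summits, and X holds 4.76% and 1.16%.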

How the data were processed

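Per the submitters' processing notes, the tools were Subread, MACS2 2.1.0 and featureCounts with the genome build mm9; neither their settings nor the way replicates were combined is stated in these sources. The authors deposited 1 list of 1 bp summits per group, with a score that is −log10 of a p-value or q-value; which of these is not stated. The cut-offs named in the lists are q = 1e-06 for IRF4 and q = 0.05 for p65, so the lists differ in stringency. Per the file's peak names, no input was used.

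Groups came from the sample titles. Positions are the third column of each list, and nearest summits were found with Python 3.11.15, numpy 2.4.6, pandas 2.3.3 and scipy 1.17.1; figures used matplotlib 3.10.9. The assignment of summits to classes was tested on simulated data, with the same IRF4 list used for both genotypes. These data held no pairs, no unplaced summits and no runs with IRF4, so those cases were not tested. Scores were used within a list only. Medians have 95% binomial intervals and differences of shares 95% Newcombe intervals. No p-value was computed, since summits are not replicates. Members, lists and comparisons were chosen with earlier results of these data known. Named were the 25 highest members, 5 summits on each side of the 200 bp limit and pairs at most 10 kb apart; other named summits were chosen after their values were seen. Gene assignment, location in genes, and motif searches were planned and not run, because no genome or annotation of build mm9 was used here. Alternatives were other limits for IRF4, for runs and for neighbours, autosomes alone, and higher scores.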

Additional observations from a re-analysis of the deposited data

How the results depend on the processing

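Of 107 recomputed values, 93 stayed within the 95% interval of the reported value (within 1.5 times for counts) and 14 moved out of it. There were 221, 202 and 198 members with IRF4 excluded within 100 bp, 500 bp and 1 kb. Above the median score of the p65 list, 79 members remained, with a median score of 13.4, 26.6% with IRF4 within 10 kb and 5.06% within 1 Mb of a p65 run. The share with IRF4 within 10 kb was 14.6% with IRF4 excluded up to 1 kb, 14.3% within 5 kb and 38.1% within 50 kb. The first setting drops the members with IRF4 within 1 kb and the others change the window, so the direction of these moves follows from the settings. The share with another p65 summit nearby was 15.7% within 10 kb, 31.7% with runs joined at 25 kb and 0 with pairs left out too, as that setting fixes. Leaving out pairs, 80.9% had a repeated score. The share near a p65 run was 8.76% with runs joined at 100 kb, a setting that itself takes members within 100 kb of a run into runs. On autosomes alone no member lies on X, by construction. Chosen after seeing the data, leaving out members within 2 kb of another p65 summit gave 16.5% with one within 50 kb. The planned shares near gene starts and with motifs were not run. No paired analysis was possible because each list pools its samples. Read depth is unknown, and the cut-offs limit which weak IRF4 summits are seen.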

Other observations

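The p65 scores of the members took few values. Of the 210 members, 152 (72.4%, 95% Wilson interval 66.0 to 78.0) had a score that another p65 summit shared to every deposited digit, and the 210 held 87 distinct values. A score of 9.35 occurred in 13 members, 6.91 in 11, and 5.21 and 5.76 in 10 each. Over all scores the share was 37.1% (28.2 to 47.0) in the 97 isolated summits with IRF4, which held 81 distinct values, and 23.4% (19.1 to 28.3) in the 321 crowded or unplaced summits without IRF4. Those with IRF4 scored higher. Among summits scoring up to 20, a limit chosen after the values were seen, the share with a repeated score was 75.4% (68.9 to 80.9) of 195 members and 90.9% (76.4 to 96.9) of 33 isolated summits with IRF4. It was 23.0% (18.7 to 27.98) of 313 crowded or unplaced summits without IRF4. The order of members with neighbouring scores is therefore coarse.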
